A study of Mus musculus with 8 samples.

Results

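The genes of cholesterol and fatty acid synthesis were compared between ADAM12+ and ADAM12- stromal cells of a mouse melanoma. They were chosen by gene name, as 28 of the 53801 genes counted, and comprised 18 genes of the sterol branch, 5 genes of the fatty acid branch and 5 regulators of both. The cells came from MO5 tumours, which are B16 melanomas carrying the ovalbumin gene, grown under the skin of ADAM12-GFP mice in the C57Bl/6 background that were 8 to 12 weeks old, and the tumours were taken at day 8. These mice carry a bacterial artificial chromosome in which Adam12 regulatory sequence drives Cre and GFP, and all cells in both groups were sorted as CD45- CD31- PDPN+ PDGFRα+ before the reporter divided them into GFP+ and GFP- cells. There were 4 libraries per group. By the study's convention a replicate stands for a mouse, and whether the GFP+ and GFP- libraries of the same number came from the same mouse is not given in the sources used here.

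Cholesterol is built from acetyl-CoA through mevalonate, squalene and lanosterol, and fatty acids are built from malonyl-CoA and then elongated and desaturated. Both branches are controlled by the SREBP transcription factors, which SCAP escorts out of the endoplasmic reticulum when sterols are scarce and INSIG proteins retain when sterols are plentiful. SREBP2 acts mainly on the sterol branch and SREBP1 mainly on the fatty acid branch, and the factors act with NF-Y, which binds CCAAT boxes.

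Total counts ran from 883144 to 17535099 in GFP- and from 8776925 to 31666734 in GFP+ libraries, and GFP- replicate 3 was the shallowest. Adam12 itself ranged from 920 to 1693 normalised counts in GFP- and from 1833 to 2938 in GFP+ libraries (log2 fold change 0.75, DESeq2 adjusted p 0.0266). A normalised count is the read count divided by the size factor of the library. Of 8 fibroblast markers, 6 rose in GFP+ cells, among them Pdgfra by 1.32 and Dcn by 1.03 on the log2 scale. All 10 melanocyte markers were lower in GFP+ libraries, with 0.263 to 0.811% of counts in GFP- and 0.0371 to 0.112% in GFP+ libraries, and none of them was at 0 in any library. Of the Schwann cell markers, 3 fell and 1 rose. Leukocyte, endothelial and keratinocyte markers had 0 calls by DESeq2 or edgeR, and limma called 1 endothelial marker. At an unadjusted p under 0.05 in DESeq2 stood 0 of 9, 2 of 5 and 1 of 3 tested, against 3203 of all 15283 genes tested.

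Upstream sequences are shown for 3 members whose first 250 bases before the RefSeq start (GRCm38.p6) lie wholly outside the annotated gene. Fasn was chosen because it fell, Mvk because its groups did not overlap, and Hmgcs1 because it held the sterol regulatory element while its log2 fold change was close to 0. Capitals mark CCAAT and the sterol element TCACNCCAC on either strand, and a pair of the Fasn matches overlap on opposite strands. The Fasn sequence is chr11:120824548-120824797 on the minus strand, the Mvk sequence chr5:114444019-114444268 on the plus strand, and the Hmgcs1 sequence chr13:119690101-119690350 on the plus strand.
Fasn: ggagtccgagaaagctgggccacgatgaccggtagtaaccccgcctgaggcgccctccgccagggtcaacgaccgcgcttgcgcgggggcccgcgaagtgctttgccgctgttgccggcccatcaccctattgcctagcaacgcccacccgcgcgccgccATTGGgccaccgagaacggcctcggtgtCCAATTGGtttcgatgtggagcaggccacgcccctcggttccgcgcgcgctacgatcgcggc
Mvk: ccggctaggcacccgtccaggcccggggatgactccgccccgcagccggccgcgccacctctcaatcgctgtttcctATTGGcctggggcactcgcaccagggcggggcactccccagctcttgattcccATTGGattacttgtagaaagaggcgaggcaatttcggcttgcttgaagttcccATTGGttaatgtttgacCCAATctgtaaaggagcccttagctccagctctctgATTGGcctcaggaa
Hmgcs1: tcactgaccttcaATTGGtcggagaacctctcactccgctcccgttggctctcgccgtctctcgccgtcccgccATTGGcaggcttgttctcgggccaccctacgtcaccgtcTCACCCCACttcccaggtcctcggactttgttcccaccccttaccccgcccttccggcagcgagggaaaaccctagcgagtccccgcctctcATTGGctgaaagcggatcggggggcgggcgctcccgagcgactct
In windows of 300 bases around the start, 22 of the 28 members were matched in the RefSeq promoter table used here, and 19 of these 22 (86.4%) held a CCAAT box against 41.1% of the 27025 genes in the table. TCACNCCAC was present for 1 of the 22 (4.55%), Hmgcs1, 137 bases before its start, against 1.44% of all genes. A match is a description of letters and not a binding site.

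Of the 28 members, 27 were tested and 3 fell in GFP+ cells (DESeq2), while 0 rose and Scd1 alone was higher at an unadjusted p of 0.0323 in DESeq2. The genes that fell were Msmo1 of the sterol branch and Fasn and Scd2 of the fatty acid branch. Across all 15283 genes tested, 4.76% were called lower and 4.66% higher (DESeq2, Benjamini-Hochberg adjusted p under 0.05). By edgeR the same 3 members were called, where 2.28% of genes were called lower. Of the 27 tested members, 24 had a negative log2 fold change, as had 50.5% of all genes, and their median was -0.55 against -0.01 over all genes. The libraries were bulk, so fewer cells of a type and less RNA per cell cannot be told apart.

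**Figure D1:**
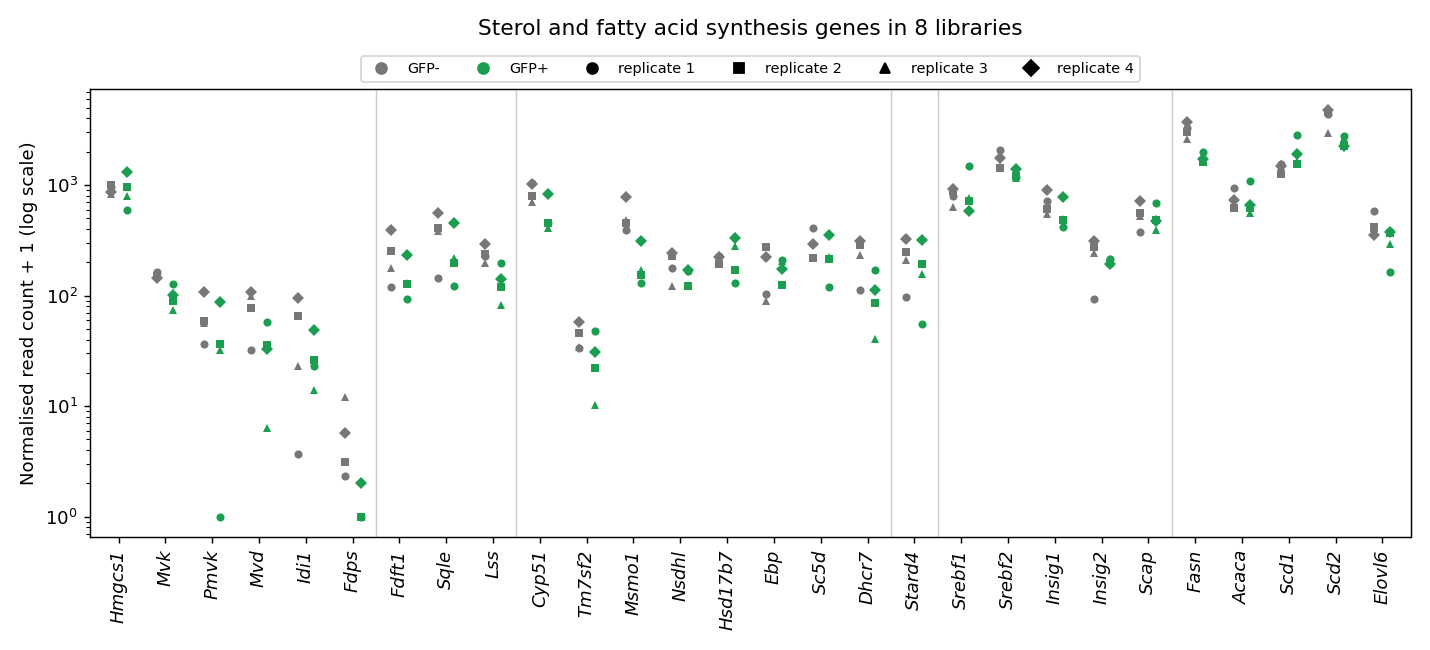
Normalised read counts plus 1 (log axis) of the 28 members in each library, with GFP- libraries in grey and GFP+ libraries in green, and the marker shape giving the replicate. Vertical lines divide the mevalonate, squalene, lanosterol, sterol carrier, regulator and fatty acid groups. The GFP+ points of Msmo1, Fasn and Scd2 lie below all GFP- points, and those of Scd1 above.

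In the first steps of the sterol branch, Hmgcs1, which makes HMG-CoA, averaged 913 ± 82.1 normalised counts over GFP- libraries and 910 ± 299 over GFP+ libraries (SD, n = 4 each). The log2 fold change of -0.01 had a 95% interval of -0.50 to 0.48. Mvk, the mevalonate kinase, had 161, 149, 154 and 144 normalised counts in GFP- replicates 1 to 4 and 126, 88.3, 73.0 and 99.6 in GFP+ replicates 1 to 4. Its groups did not overlap, but its log2 difference of -0.66 ± 0.285 (SE) had an adjusted p of 0.141 in DESeq2. Pmvk, Mvd and Idi1, which carry mevalonate on to the isoprenoid units, had log2 fold changes of -0.73, -1.27 and -0.81, and all 3 had overlapping groups and intervals that included 0. With 1 library left out, Pmvk ran from -1.50 to -0.32, Mvd from -1.66 to -0.92 and Idi1 from -1.26 to -0.16. Fdps, which makes farnesyl diphosphate, was counted at 1, 3, 1 and 9 reads in GFP- and 0, 0, 0 and 3 reads in GFP+ replicates and was not tested. Its exons share 26.7% of their bases with the same-strand genes Gm43738 and Gm22935. In the 8 libraries 0 reads were found under these names, and whether the counted genes include these names was not checked. The part of this overlap in the low counts of Fdps was not tested.

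The genes that make squalene and lanosterol had lower means in GFP+ libraries, with 0 of 3 called by DESeq2 or edgeR, 1 at an unadjusted p under 0.05, and 1 called by limma. That unadjusted threshold was passed by 3203 of all 15283 genes tested (DESeq2). Lss, the lanosterol synthase, had 227, 236, 198 and 292 normalised counts in GFP- replicates 1 to 4 and 197, 118, 81.4 and 141 in GFP+ replicates 1 to 4. The groups nearly met but did not overlap, and the log2 difference of -0.86 ± 0.324 (SE) had an adjusted p of 0.0740 in DESeq2, which was 0.00872 without GFP+ replicate 1 and 0.0308 by limma. The adjusted p was 0.302 in DESeq2 without GFP- replicate 4 and 0.196 by edgeR. Fdft1, the squalene synthase, and Sqle, the squalene epoxidase, had log2 fold changes of -0.72 and -0.60 with overlapping groups. Exons of Fdft1 share 18.3% of their bases with Ctsb on the opposite strand.

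Among the 8 late sterol genes, 1 fell, Msmo1, which takes part in removing the methyl groups at carbon 4. It had 395, 452, 483 and 777 normalised counts in GFP- replicates 1 to 4 and 129, 152, 168 and 309 in GFP+ replicates 1 to 4. Every GFP+ library lay below every GFP- library. On the log2 scale this was a difference of -1.47 ± 0.345 (SE), 2.78-fold in GFP- over GFP+, at an adjusted p of 6.54e-04 by DESeq2. It was called in each of the 8 fits that left out 1 library. Msmo1 (ENSMUSG00000031604) lies on the minus strand of chromosome 8 from 64718139 to 64733792 (GRCm38).

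Cyp51, the lanosterol demethylase, had 1053, 792, 703 and 1012 normalised counts in GFP- replicates 1 to 4 and 454, 451, 409 and 827 in GFP+ replicates 1 to 4. GFP+ replicate 4 alone reached into the GFP- range. The log2 difference of -0.74 ± 0.275 (SE) had an adjusted p of 0.0669 in DESeq2, which was 1.31e-04 without GFP+ replicate 4 and 0.0412 without GFP- replicate 3. The adjusted p was 0.225 in DESeq2 without GFP+ replicate 3 and 0.116 by edgeR. Cyp51 was lower in GFP+ in each of the 4 same-numbered pairs, and DESeq2 gave it an adjusted p of 0.00966 once the replicate number was a block. Dhcr7, which closes the pathway, had 111, 286, 231 and 308 normalised counts in GFP- replicates 1 to 4 and 169, 84.5, 39.2 and 112 in GFP+ replicates 1 to 4. GFP- replicate 1 lay within the GFP+ range, and the log2 difference of -1.22 ± 0.473 (SE) had an adjusted p of 0.0847 in DESeq2, which was 0.0199 without GFP- replicate 1, 0.0116 without GFP+ replicate 1 and 0.0400 by limma. For Dhcr7 it was 0.301 in DESeq2 without GFP- replicate 4 and 0.178 by edgeR. Hsd17b7 and Ebp had log2 fold changes of 0.08 and -0.02, and Nsdhl, Sc5d and Tm7sf2 of -0.46, -0.42 and -0.70, each with an interval that included 0. Stard4, which carries cholesterol between membranes, had a log2 fold change of -0.28 with an interval of -1.29 to 0.72.

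Over the sterol branch, 1 of 17 tested genes fell, against 4.76% of all tested genes. Of the 17, 16 had a negative log2 fold change, against 50.5% of all tested genes, and the median was -0.70. Every GFP+ library was below every GFP- library for 3 genes, Mvk, Lss and Msmo1, as it was for 5.95% of all tested genes. The number called was 2 when GFP- replicate 1, GFP- replicate 3 or GFP+ replicate 4 was left out, and 3 by limma or when GFP+ replicate 1 was left out. With the replicate number as a block it was 2, Msmo1 and Cyp51. In all 4 same-numbered pairs, 8 of the 17 tested genes were lower in GFP+, against 12.9% of all tested genes. Many of the 18 genes were highest or lowest in the same library. Replicate 4 was highest of its group for 11 of 18 genes in GFP- and 12 of 18 in GFP+ libraries, against 21.8% and 22.5% of all tested genes. Replicate 1 was lowest for 10 of 18 and 9 of 18, against 38.4% and 42.8% of all tested genes. The 9 include Fdps, at 0 in GFP+ replicates 1, 2 and 3. Ties were given to the lowest replicate number, also for all tested genes.

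**Figure D2:**
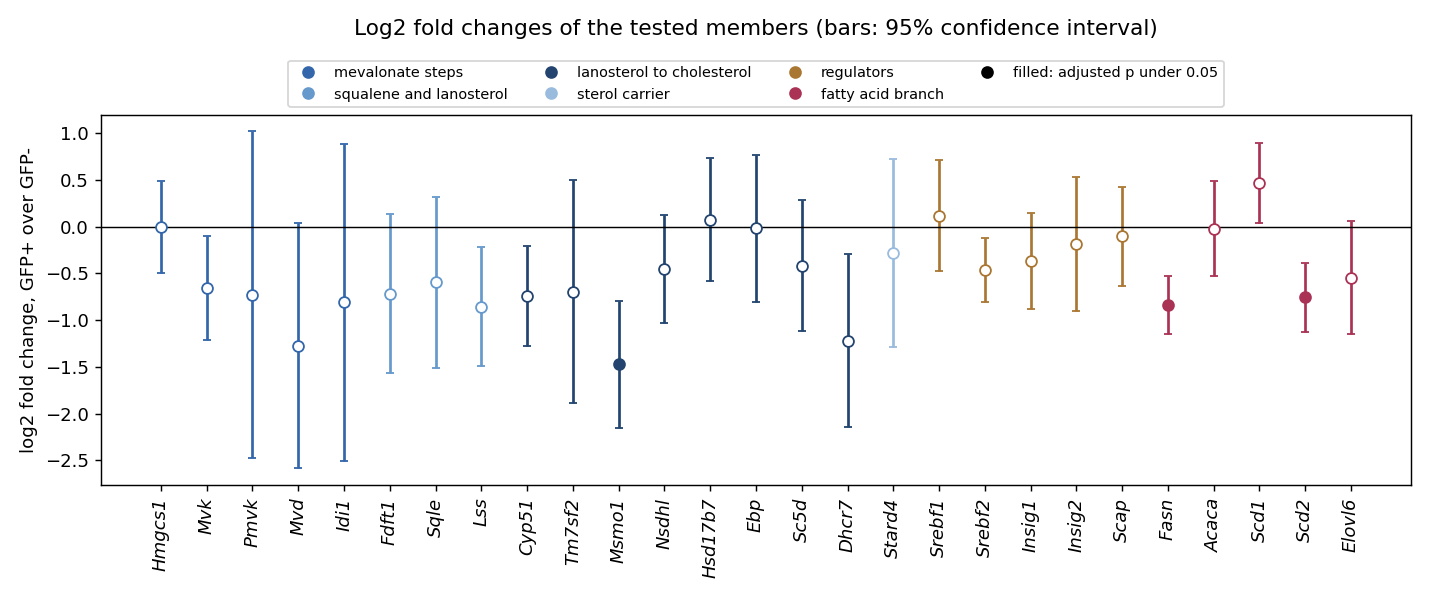
Log2 fold changes of the 27 tested members, GFP+ over GFP-, with 95% confidence intervals, coloured by role, and filled where the adjusted p passed the threshold. The filled points are Msmo1, Fasn and Scd2, and Scd1 is the highest point at 0.47.

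Of the 5 fatty acid genes, 2 fell, and 1 of the others had a positive log2 fold change. Fasn, the fatty acid synthase, had 3270, 3038, 2604 and 3716 normalised counts in GFP- replicates 1 to 4 and 1990, 1601, 1791 and 1714 in GFP+ replicates 1 to 4. The lowest GFP- library lay above the highest GFP+ library. On the log2 scale this was a difference of -0.84 ± 0.160 (SE), 1.79-fold in GFP- over GFP+, at an adjusted p of 9.86e-06 by DESeq2. Scd2, a stearoyl-CoA desaturase, had 4386, 4580, 2934 and 4806 normalised counts in GFP- replicates 1 to 4 and 2759, 2255, 2654 and 2274 in GFP+ replicates 1 to 4. GFP- replicate 3 lay just above the GFP+ range, and the log2 difference of -0.76 ± 0.188 (SE) had an adjusted p of 0.00161 in DESeq2. Fasn (ENSMUSG00000025153) lies on the minus strand of chromosome 11 from 120805846 to 120824547. Fasn and Scd2 were both called in each of the 8 fits that left out 1 library.

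Scd1, the paralog of Scd2 on chromosome 19, went the other way without passing the test. It had 1541, 1251, 1439 and 1494 normalised counts in GFP- replicates 1 to 4 and 2808, 1563, 1650 and 1909 in GFP+ replicates 1 to 4. No GFP+ library was below a GFP- library, as for 6.37% of all tested genes, and the log2 difference of 0.47 ± 0.219 (SE) had an adjusted p of 0.183 in DESeq2. The count of Scd2 divided by that of Scd1 in the same library was 2.85, 3.66, 2.04 and 3.22 in GFP- replicates 1 to 4 and 0.983, 1.44, 1.61 and 1.19 in GFP+ replicates 1 to 4. This ratio was formed after the values were seen and is a description. Transcripts of the pair share a stretch of 623 bases at 95.5% identity, over which reads can be lost or split. Scd1 (ENSMUSG00000037071) lies on the minus strand of chromosome 19 from 44394455 to 44407879, and Scd2 (ENSMUSG00000025203) on the plus strand of the same chromosome from 44293674 to 44306864 (GRCm38).

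Acaca, the carboxylase that makes malonyl-CoA, had 734 ± 142 and 728 ± 236 normalised counts (SD, n = 4 each) in GFP- and GFP+ libraries, a log2 fold change of -0.02 with an interval of -0.53 to 0.49. Elovl6, which elongates palmitate, had a log2 fold change of -0.55 with an interval of -1.15 to 0.06. A pseudogene transcript matched 6118 bases of the Acaca transcript at 99.2% identity, so that its count is uncertain, and the counts of Idi1, Fdft1 and Elovl6 are uncertain for the same reason.

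Levels can be set side by side between members as normalised counts per kilobase of exon. In GFP- libraries Scd2 was highest at 764 ± 155 (SD, n = 4), followed by Scd1 at 293 ± 26.0, Fasn at 288 ± 42.4 and Srebf2 at 235 ± 41.5, and these last 3 did not differ beyond their spread. In GFP+ libraries Scd2 at 455 ± 47.4 and Scd1 at 405 ± 116 were within their spread of each other, followed by Hmgcs1 at 198 ± 65.0, Insig1 at 175 ± 51.4, Srebf2 at 171 ± 14.3 and Fasn at 162 ± 14.9, and these 4 did not differ beyond their spread. The lowest tested members in GFP+ libraries were Tm7sf2 at 6.13 ± 3.63 and Idi1 at 7.73 ± 4.23. Exons of Tm7sf2 share 12.1% of their bases with the same-strand gene Vps51. In the 8 libraries 0 reads were found under the name Vps51, and whether the counted genes include this name was not checked. The part of this overlap in the level of Tm7sf2 was not tested.

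**Figure D3:**
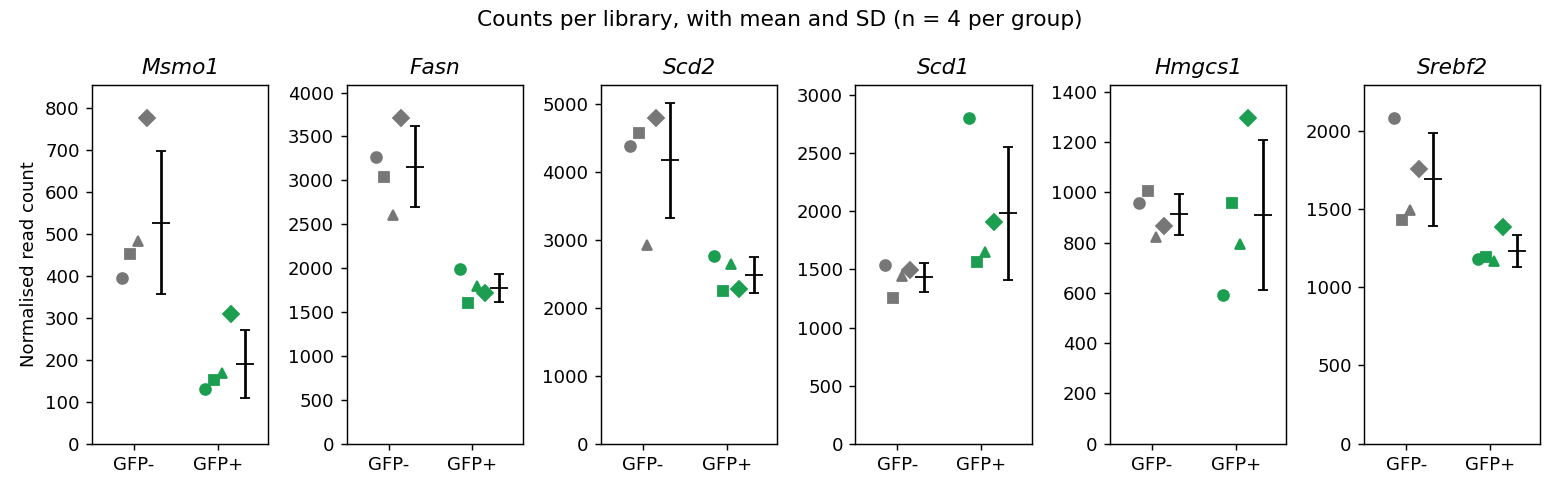
Normalised read counts of 6 genes in the 8 libraries (points, marker shape by replicate) with the mean and SD of each group (n = 4). Msmo1, Fasn, Scd2 and Srebf2 are lower in all GFP+ libraries, Scd1 is higher in all, and Hmgcs1 overlaps.

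Of the 5 regulators, 0 were called by DESeq2 and 1 had an unadjusted p under 0.05, and edgeR and limma also called 0. Of all 15283 genes tested, 3203 had an unadjusted p under 0.05 in DESeq2. The regulator under this threshold was Srebf2, which encodes SREBP2. It had 2085, 1428, 1494 and 1755 normalised counts in GFP- replicates 1 to 4 and 1178, 1195, 1167 and 1383 in GFP+ replicates 1 to 4. The groups did not overlap, and the log2 difference of -0.46 ± 0.175 (SE) had an adjusted p of 0.0732 in DESeq2, which was 0.0441 without GFP- replicate 3. The adjusted p was 0.248 in DESeq2 without GFP- replicate 1 and 0.146 by edgeR. Srebf1, which encodes SREBP1, had a log2 fold change of 0.12 with an interval of -0.48 to 0.71, and GFP+ replicate 1 stood at 1480 normalised counts against 579 to 767 in the other GFP+ libraries. Insig1, a target of the SREBPs as well as their retention factor, had a log2 fold change of -0.37, and Insig2 and Scap of -0.18 and -0.11.

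Other genes of the same pathways were read from lists of 15 sterol and 16 fatty acid genes. Across all tested genes, 4.76% were called lower and 4.66% higher by DESeq2. Of the 15 sterol genes tested, 1 fell and 2 rose. Nr1h2, which encodes a liver X receptor, fell by 1.04 on the log2 scale (DESeq2 adjusted p 0.0180), and GFP- replicate 1 stood at 1362 normalised counts against 494 to 699 in the other GFP- libraries. Abca1, the cholesterol exporter, and Npc2, which moves cholesterol out of lysosomes, rose by 0.77 and 0.63 on the log2 scale (DESeq2 adjusted p 0.00607 and 0.0284). The groups of Abca1 overlapped, with a GFP- maximum of 3153 and a GFP+ minimum of 3133 normalised counts. Of 15 fatty acid genes tested, 1 rose, Gpam, which begins glycerolipid synthesis, by 0.83 on the log2 scale (DESeq2 adjusted p 0.0293), and 0 fell. EdgeR called 1 of these 4, Abca1, and of the 4 only Abca1 was called in each of the 8 fits that left out 1 library. Nr1h2 lost its call without GFP- replicate 1 (log2 fold change -0.65, DESeq2 adjusted p 0.0778), GFP+ replicate 3 (0.0585) or GFP+ replicate 4 (0.0691). Npc2 lost its call without GFP- replicates 2, 3 or 4 or GFP+ replicates 1, 3 or 4, with DESeq2 adjusted p from 0.0591 to 0.109, and Gpam without GFP- replicates 3 or 4 or GFP+ replicates 1 or 3, from 0.0611 to 0.148.

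Summed over the branch, the 18 sterol genes had 4278 to 6028 normalised counts in GFP- and 2683 to 5009 in GFP+ libraries, with GFP+ replicate 4 inside the GFP- range. The 5 fatty acid genes summed to 8032 to 11096 in GFP- and 6406 to 8797 in GFP+ libraries, which overlapped through GFP- replicate 3 and GFP+ replicate 1. Melanocyte marker transcripts were, like these sums, lower on average in GFP+ cells. GFP- replicate 4 had the highest melanocyte share and the highest Msmo1, Fasn and Scd2 in GFP-, and GFP- replicate 3 the lowest share and the lowest Fasn and Scd2. GFP- replicate 1 had the next highest share, 0.483%, but the lowest sterol sum and the lowest Msmo1 of its group. In GFP+ cells replicate 4 had the highest share, the highest sterol sum and the highest Msmo1, and replicate 1 the lowest of all 3, whereas Fasn and Scd2 were highest in replicate 1. The part of melanocyte RNA in the lower members was not tested. Adipocyte markers summed to 102 to 437 normalised counts in GFP- and 210 to 944 in GFP+ libraries, and 1 of the 4 tested, Fabp4, rose by 2.10 on the log2 scale. Plin1 stood at 0.394 ± 0.788 in GFP- and 11.6 ± 8.05 in GFP+ libraries (SD, n = 4 each), without overlap (log2 fold change 3.88, DESeq2 adjusted p 0.112). Adipoq stood at 0.621 ± 0.734 and 1.95 ± 2.25 normalised counts (SD, n = 4 each), and GFP+ replicate 1, the highest for Scd1, had the lowest adipocyte sum of the GFP+ libraries. Among the rest of the list, Cfd, Cidec and Pparg had higher means in GFP+ libraries, and Lipe and Lep lower ones. Lipe stood at 50.5 in GFP- and 44.5 in GFP+ libraries (log2 fold change -0.21). Lep stood at 8.82 and 0, with its reads in GFP- replicate 1 alone. The part of adipocyte RNA in the values of Scd1 and Gpam was not tested.

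**Figure D4:**
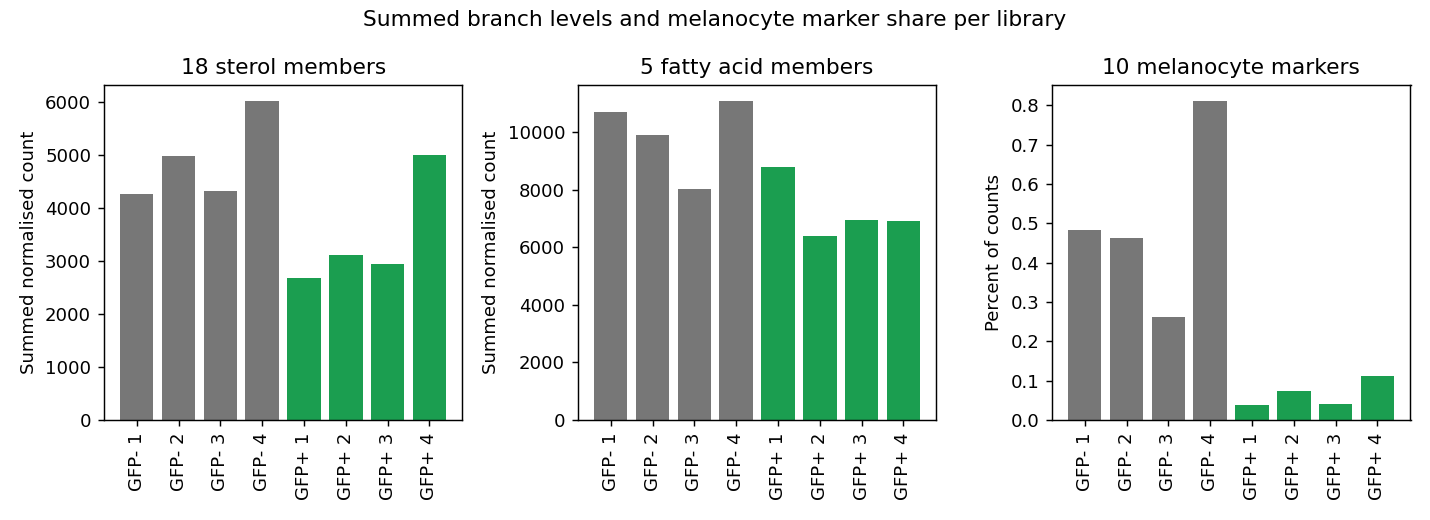
Summed normalised counts of the 18 sterol members and the 5 fatty acid members, and the percent of counts on 10 melanocyte markers, in each library (bars, axes from 0, GFP- grey and GFP+ green). The melanocyte share does not overlap between groups, whereas both sums do.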

How the data were processed

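RNA-seq libraries of 8 sorted cell samples, 4 GFP+ and 4 GFP-, were grouped by their labels. A stranded low-input kit for total RNA was used for the libraries. Per the study's methods and processing notes, the authors trimmed reads with cutadapt 3.4, mapped them to GRCm38 with STAR 2.7.3a and counted them by strand with featureCounts 2.0.1. The authors deposited 1 table of raw counts per gene and library, used here, beside a normalised score per library (the count divided by the DESeq2 size factor, rounded), used only as a check. It also holds the authors' own fold changes and p-values, which were not used.

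DESeq2 1.42.0 was fitted to all 8 libraries with group as the only term, and p-values were adjusted over 15283 genes, after independent filtering. Alternatives were edgeR 4.0.16, limma 3.58.1, other size factors and filters, a replicate block and each library left out. Scripts were tested on simulated data. Sequences and windows came from RefSeq (GRCm38.p6), and coordinates and exon lengths from GENCODE on GRCm38. Transcripts were compared with blastn 2.17.0 at a minimum identity of 95% over 300 bases. All 28 members were named. Of the other pathway genes, those with an adjusted p under 0.05 were named, and any other gene was chosen after its values were seen. A result on 1 other gene is not reported here. Members and lists were chosen with earlier results of these data known. Replicates agreed less well than sampling noise alone would give, so none was counted as a repeat. Depth ran from 883144 to 31666734 reads per library.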

Additional observations from a re-analysis of the deposited data

Results flagged for a closer look

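In 3 of 56 groups of 4 libraries, 1 library of a member stood far from the other 3 by Dixon's test, where chance flags about 1 in 20. GFP+ replicate 4 was the library in each case. It had 827 normalised counts of Cyp51 against 454 for the nearest library, 1383 of Srebf2 against 1195, and 1.01 of Fdps, which is 3 reads, against 0. GFP+ replicate 4 was also the deepest library.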

How the results depend on the processing

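Msmo1, Fasn and Scd2 kept their direction and their call under every alternative tried at an adjusted p under 0.05. Of all genes, 1439 were called, against 732 by edgeR and 844 at an adjusted p under 0.01. Sterol members called numbered 1, against 3 by limma and 1 to 3 with a library left out (3 without GFP+ replicate 1), and regulators 0, against 0 to 1. Other pathway genes called numbered 4, against 1 by edgeR, 2 without independent filtering, 1 at an adjusted p under 0.01 and 1 to 4 with a library left out (1 without GFP+ replicate 3, 2 without GFP- replicate 4). With the replicate number as a block, 6 of these other pathway genes were called. The cause was not tested.

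With the replicate number as a block, 2 sterol members were called, Cyp51 being added (DESeq2 adjusted p 0.00966), and 1492 of all genes. Deviations of same-numbered libraries correlated at 0.15, -0.15, -0.12 and 0.24, and not every library correlated best with its own number, as a hint from the data. Whether same-numbered libraries share a mouse is not given in the sources used here, so the pairing is not settled.

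Log2 fold changes near 0 changed sign. Hmgcs1 was 0.0011 by edgeR, 0.0043 by limma and 0.0065 with TMM factors, Hsd17b7 -0.0346 and Ebp 0.118 with the block, and Srebf1 -0.17 by limma. With a library left out, Hmgcs1 ran from -0.23 to 0.16, Hsd17b7 from -0.16 to 0.28, Ebp from -0.24 to 0.28, Stard4 from -0.70 to 0.0225, Srebf1 from -0.25 to 0.27, Insig2 from -0.49 to 0.0257, Scap from -0.27 to 0.0765 and Acaca from -0.26 to 0.12.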
